A study of Homo sapiens with 6 samples.

Results

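Integrins are the receptors by which cells hold on to the extracellular matrix. Each is a pair of an alpha and a beta subunit, and the pair decides the ligand: the beta subunit ITGB1 with ITGA5 binds fibronectin, with ITGA3 or ITGA6 laminin and with ITGA2 collagen, while ITGAV pairs with ITGB1, ITGB3, ITGB5 or ITGB8 to bind vitronectin, fibronectin and the latent form of TGF-beta. In melanoma, integrins are known for their part in adhesion, migration and invasion, and ITGB3 for its link with the invasive growth phase. The subunits described here were chosen by gene name as the main matrix-binding subunits of melanoma cells, 10 names in all. Of these, 9 were among the 30015 genes of the deposited table. ITGA4 was not analysed here.

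The RNA-seq compared 3 Vector libraries with 3 shEZH2 libraries, all from HMV-II cells, a human line of vaginal mucosal melanoma grown in F10 medium with serum. Vector cells are labelled WT and carry the negative control shRNA (headed shNC in the table), shEZH2 cells are labelled EZH2 knockdown and carry an shRNA against EZH2 (headed sh1), and the treatment label of both groups is none. Both were made as stable lines by lentivirus and puromycin, in this 1 cell line and with 1 knockdown group. Off-target effects of that shRNA and the loss of EZH2 cannot be told apart. Nothing states that the replicates came from separate cultures, and the p-values measure only the spread between these libraries.

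Values of single libraries are given in the order of replicates 1, 2 and 3 throughout. Between 13400290 and 15923029 reads fell on genes in the Vector libraries and between 16129171 and 19128939 in the shEZH2 libraries. EZH2, the methyltransferase of Polycomb repressive complex 2 and the target of the knockdown, had 483, 437 and 552 normalized counts across the Vector libraries and 237, 247 and 225 across the shEZH2 libraries, a log2 fold change of -1.04 (standard error, SE, 0.14, limma adjusted p = 0.0142). Vector replicate 2 stood apart from the other Vector libraries. Genes in the longest quintile were higher in it by a median of 0.42 on the log2 scale than in the mean of Vector replicates 1 and 3, and those in the shortest quintile had a median of -0.54. The melanoma label was borne out by its markers, all 9 of which were expressed, and their summed level was 75579 to 101194 normalized counts in Vector and 79558 to 86020 in shEZH2 libraries. PMEL alone, a melanosome protein, had a mean of 60992 in Vector cells. Members of the list moved apart under that sum, since TYRP1 (1.68 on the log2 scale) and MLANA (0.88) were called higher and TYR (-0.97) lower. Without Vector replicate 2 MLANA gave 0.39 (adjusted p = 0.0237 in limma) and was not called, as it fell short of 1.5-fold. Over all genes tested, 2875 passed adjustment in limma without that library, against 629 with all libraries. The 5 leukocyte markers in the table summed to 11.2 to 32.6 normalized counts in Vector and to 15.3 to 28.7 in shEZH2 libraries, and the 4 endothelial markers to 25.5 to 74.5 and 25.8 to 30.3. The 5 epithelial markers summed to 1309 to 1722 and 1570 to 1678, mostly KRT18, with EPCAM and KRT14 near 0. The 6 fibroblast markers summed to 182 to 247 and 250 to 312, without overlap, with COL1A1, DCN and PDGFRA near 0. The 2 fibroblast markers tested were LUM, called higher (0.74 on the log2 scale), and COL1A2, called lower (-0.83). Their adjusted p-values were 0.0772 and 0.120 in limma.

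ITGA5, the fibronectin receptor subunit, was the only integrin subunit of the 9 that was called between the groups, and it was higher in shEZH2 cells. Its gene (ENSG00000161638) spans chromosome 12 of GRCh38 from 54395261 to 54419460, minus strand. Short stretches around its RefSeq transcription start (GRCh38.p14) are shown because ITGA5 was the subunit that was called, with ITGB1, its beta partner, beside it. The windows were searched on both strands from 250 bases before to 50 bases after each start. The letters of the AP-1 motif were TGANTCA, and those of the TEAD motif were GGAATG. A GC box was searched as GGGCGG, whereas the TATA box was searched as TATAAA. In the lines below, capitals mark the motif and the sequence runs 5′ to 3′ on the minus strand, which is the strand of both genes.
ITGA5, AP-1 letters, chr12:54419256-54419282: ctccccgcgtTGAGTCAttcgcctctg
ITGA5, TEAD letters, chr12:54419333-54419358: cagggacccaGGAATGcccccccgcc
ITGB1, TEAD letters, chr10:32958397-32958422: cggcgggagaGGAATGcgtttccgga

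The first ITGA5 match begins at position -6 and the second at position -82 from the RefSeq start. Of all 35116 start-site windows in the RefSeq table, 7.71% hold the AP-1 letters, 14.0% the TEAD letters and 1.45% both, in any order and place. There were 12 windows for 7 of the 9 subunits, since some genes have several starts, and none were in the table for ITGA3 and ITGB3. Of the 12, 1 held AP-1 letters, 2 TEAD letters, 9 a GC box (45.0% of all windows) and 2 a TATA box (11.5%). These matches are a description of letters, and binding at them was not measured here.

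ITGA5 had 350, 373 and 372 normalized counts across the Vector libraries and 748, 696 and 775 across the shEZH2 libraries. A normalized count is the number of reads on a gene divided by the size factor of its library. It is thus a level relative to the other genes of its library, and not an amount of RNA. A change in how many cells express a gene cannot be told apart from a change in RNA per cell. Every shEZH2 library lay above every Vector library, and the spread within each group was small, with 365 ± 12.6 (SD, n = 3) for Vector and 740 ± 40.1 (SD, n = 3) for shEZH2. The mean was 2.03-fold higher in shEZH2 cells. On log2(normalized count + 1), the log2 fold change was 1.02 (SE 0.12, 95% interval 0.73 to 1.31, limma adjusted p = 0.0106, over 15251 genes). An exact two-sided permutation test gave p = 0.1, and no smaller value is possible with 3 libraries in each group. ITGA5 was called higher under all 15 other settings that were fitted, with a log2 fold change from 0.98 to 1.11. Its adjusted p passed 0.05 in 12 of them, and was 0.0732, 0.0703 and 0.110 without shEZH2 replicate 1, 2 or 3. Over all genes tested, only 19, 31 and 4 passed adjustment in those fits, against 629 with all libraries. Vector replicate 2 had 1.03 times the mean of the other Vector libraries for ITGA5, and leaving it out gave 1.03.

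A gene was called at the thresholds of the study's methods, an unadjusted p under 0.05 with a change of more than 1.5-fold. By that rule 1 of the 9 subunits was called higher and 0 were called lower, where 7.55% of all genes tested were called higher and 7.07% lower. On recovered reads, edgeR and DESeq2 each also called 1 higher and 0 lower. Without the fold threshold, 3 of the 9 had a p under 0.05 in limma, namely ITGA5, ITGA3 and ITGB3, against 11.9% of all genes with a higher and 11.3% with a lower level. After adjustment 1 of the 9 was higher and 0 were lower, against 2.28% and 1.84% of all genes in limma. The groups did not overlap for 1 subunit that was higher and 3 that were lower (ITGA3, ITGA6 and ITGB3), against 18.4% and 16.5% of all genes. Without regard to any test, 5 of the 9 had a log2 fold change below 0, against 46.5% of all genes. A count of 1 called in 9 is near the background and is no result about the subunits together.

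Vector replicate 2 was above both other Vector libraries in 8 of the 9 subunits, all but ITGB1, and its ratio to their mean ran from 0.857 for ITGB1 to 2.10 for ITGB8. The genes are long, in the 3 longest quintiles of gene length among the genes tested. Values without this library are therefore given beside those of all 6, and values with the length trend removed where they move by over 1.5 times. The part of that library's length trend in each difference was not tested.

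ITGA3 and ITGA6 are laminin-binding subunits, and neither was called. ITGA3, on chromosome 17 from 50055968 to 50090481 on the plus strand, had 30452, 37430 and 30103 normalized counts across the Vector libraries and 25345, 22409 and 24337 across the shEZH2 libraries. The groups did not overlap, as was so for 34.8% of all genes tested. The log2 fold change was -0.44 (SE 0.17, 95% interval -0.84 to -0.04, limma adjusted p = 0.186). Its unadjusted p from the limma fit over all genes was 0.0364, and an exact permutation test gave p = 0.1. Without Vector replicate 2 the log2 fold change was -0.34, with an adjusted p of 0.0226 in limma, in the fit where 2875 genes passed adjustment. With the length trend removed it was -0.27 (adjusted p = 0.293 in limma).

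ITGA6, on chromosome 2 from 172427354 to 172506282 on the plus strand, pairs with ITGB1 or with ITGB4, and the Vector mean of ITGB4 was 6.25 normalized counts. It had 6851, 11150 and 7035 normalized counts across the Vector libraries and 4896, 6833 and 6124 across the shEZH2 libraries. The highest shEZH2 library lay just under the lowest Vector library, so the groups did not overlap but nearly touched. The log2 fold change was -0.46 (SE 0.23, 95% interval -1.01 to 0.08, limma adjusted p = 0.277), and -0.24 without Vector replicate 2. A fall by more than 1.5-fold and no difference were both inside the interval.

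ITGB1, the beta subunit shared by the receptors for fibronectin, laminin and collagen, showed no detectable difference. It lies on the minus strand of chromosome 10 from 32900319 to 33005792. Its values were 7607, 6540 and 7657 normalized counts across the Vector libraries and 6640, 8929 and 7898 across the shEZH2 libraries, and the groups overlapped. The log2 fold change was 0.10 (SE 0.16, 95% interval -0.28 to 0.48, limma adjusted p = 0.732), an interval that excludes a change of 1.5-fold in either direction. Without Vector replicate 2 it was 0.03. ITGA2, the collagen-binding partner of ITGB1 (chromosome 5, 52989326 to 53094779, plus strand), had 451, 680 and 461 normalized counts across the Vector libraries and 475, 668 and 633 across the shEZH2 libraries. The groups overlapped, with Vector replicate 2 the highest of the 6, and the log2 fold change was 0.17 (95% interval -0.33 to 0.67, adjusted p = 0.647 in limma). Without Vector replicate 2 it was 0.36 (limma adjusted p = 0.105), so the size of this difference rests on that library, and with the length trend removed 0.27.

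ITGAV and its beta partners gave no call either. ITGAV (chromosome 2, 186590065 to 186680901, plus strand) had 2707, 3812 and 2704 normalized counts across the Vector libraries and 2204, 3186 and 2567 across the shEZH2 libraries. The groups overlapped, and the log2 fold change was -0.21 (95% interval -0.68 to 0.26, adjusted p = 0.545 in limma), or -0.05 without Vector replicate 2 and -0.09 with the length trend removed. ITGB5, its vitronectin-binding partner (chromosome 3, 124761948 to 124901418, minus strand), had 5830, 6937 and 5863 normalized counts across the Vector libraries and 7130, 6268 and 6911 across the shEZH2 libraries. Its log2 fold change was 0.13 (95% interval -0.21 to 0.46, adjusted p = 0.610 in limma), which excludes a change of 1.5-fold, as for ITGB1 and for no other of the 9. Without Vector replicate 2 it was 0.21 (adjusted p = 0.141 in limma).

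ITGB3, the partner of ITGAV in the receptor tied to invasive melanoma, was lower in every shEZH2 library than in any Vector library. It lies on the plus strand of chromosome 17 from 47253846 to 47311816. It had 734, 983 and 778 normalized counts across the Vector libraries and 471, 665 and 673 across the shEZH2 libraries. The log2 fold change was -0.47 (SE 0.19, 95% interval -0.92 to -0.02, limma adjusted p = 0.200), short of 1.5-fold. Its unadjusted p from the limma fit over all genes was 0.0431, and an exact permutation test gave p = 0.1. Without Vector replicate 2 it was -0.34 (adjusted p = 0.133 in limma), and with the length trend removed -0.54 (adjusted p = 0.135 in limma). In none of the settings did ITGB3 pass after adjustment. Its gene overlaps the antisense gene THCAT158, whose mean was 3.33% of that of ITGB3, the largest such share among the 9 subunits, and without the strandedness of the libraries reads in the overlap cannot be assigned.

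ITGB8, which with ITGAV binds latent TGF-beta, had the lowest log2 fold change of the 9 and also the widest spread. It lies on the plus strand of chromosome 7 from 20330702 to 20415754. It had 1514, 3199 and 1533 normalized counts across the Vector libraries and 1117, 1667 and 1344 across the shEZH2 libraries. The log2 fold change of -0.52 (SE 0.31, 95% interval -1.24 to 0.20, limma adjusted p = 0.343) rested on Vector replicate 2 and was -0.17 without it, and -0.26 with the length trend removed. By the gene length used for the quintiles, ITGB8 is the longest of the 9, at 15156 bases.

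**Figure D1:**
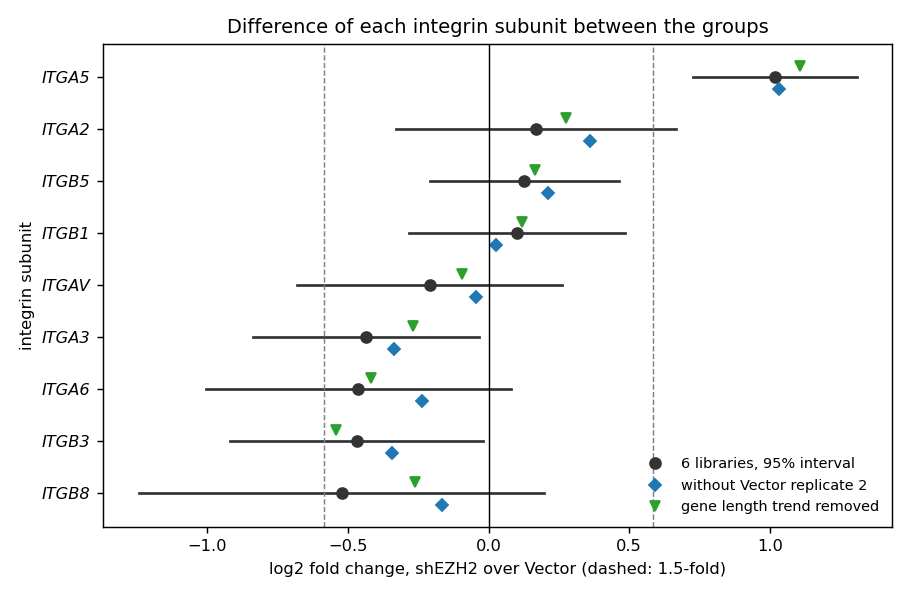
Log2 fold change of each integrin subunit in shEZH2 over Vector cells, with the 95% interval from all 6 libraries (circles and lines), the value without Vector replicate 2 (diamonds) and the value with the gene length trend removed (triangles). ITGA5 is the only subunit with a plotted value beyond a dashed 1.5-fold line, and its 3 values lie between 1.02 and 1.11, and the value of ITGB8 moves from -0.52 to -0.17 without Vector replicate 2.

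To compare the subunits with each other, levels were set per length, as RPKM, the reads per kilobase of gene length scaled to the library's reads on genes. ITGA3 was the most abundant subunit in both groups, at 208 ± 31.9 RPKM (SD, n = 3) in Vector and 159 ± 9.38 (SD, n = 3) in shEZH2 cells, and its lowest library in each group exceeded the highest library of every other subunit. In Vector cells the order of mean levels was ITGA3, ITGA6 (79.9), ITGB1 (75.2), ITGB5 (60.1), ITGAV (23.4), ITGB3 (11.8), ITGB8 (8.62), ITGA2 (4.19) and ITGA5 (3.0). The neighbours ITGA6 and ITGB1, and ITGB3 and ITGB8, overlapped between libraries in that order, and the other neighbours did not. ITGA5 was thus the least abundant of the 9 in Vector cells, at 3.0 ± 0.167 RPKM (SD, n = 3).

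In shEZH2 cells ITGA5 reached 6.32 ± 0.263 RPKM (SD, n = 3) and stood above ITGB8 (5.88) and ITGA2 (4.84) by its mean. Its libraries overlapped those of ITGB8, and ITGB8 those of ITGA2, so the place of ITGB8 in this order is within the spread. In the Vector libraries ITGA5 lay below ITGA2 without overlap, at 2.82, 3.15 and 3.03 against 3.48, 5.51 and 3.60 RPKM. In the shEZH2 libraries it lay above ITGA2 without overlap, at 6.43, 6.02 and 6.50 against 3.91, 5.53 and 5.09 RPKM. ITGB1, the partner of ITGA5, was at 84.2 RPKM. ITGB1, ITGB5 and ITGA6, at 84.2, 67.9 and 58.9 RPKM, also overlapped in that order.

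**Figure D2:**
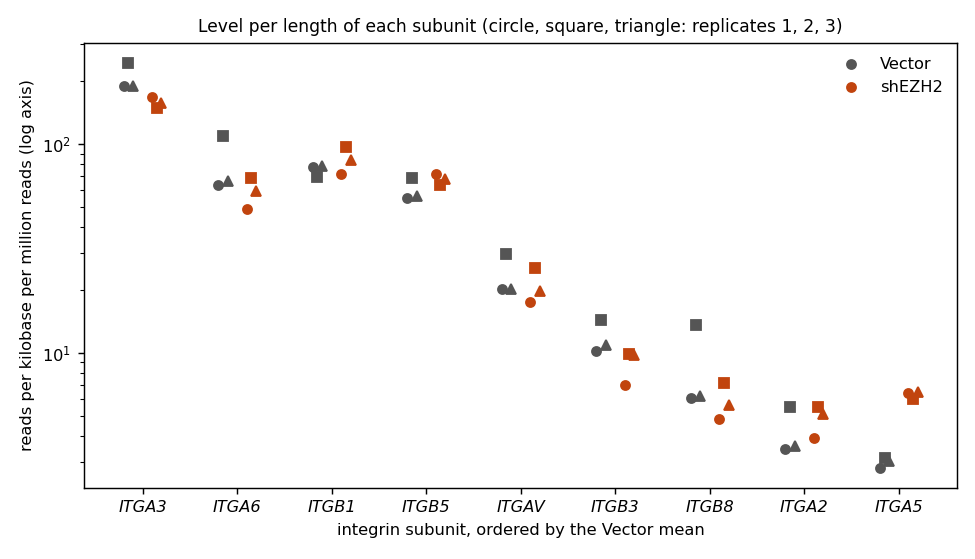
Level per length of the 9 integrin subunits in each library, in RPKM on a log axis, ordered by the Vector mean, with replicates 1, 2 and 3 as circles, squares and triangles. ITGA3 lies highest in both groups, and ITGA5 moves from about 3.0 in Vector to 6.32 in shEZH2 cells, within the range of ITGB8.

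ITGA5 made up 1.01%, 0.803% and 1.07% of the summed RPKM of the 5 alpha subunits across the Vector libraries and 2.63%, 2.36% and 2.61% across the shEZH2 libraries. All shEZH2 libraries lay above all Vector libraries (exact permutation test, two-sided, p = 0.1, which is the smallest possible). The sum leaves out ITGA4 and was mostly ITGA3, with a mean of 65.7% in Vector and 63.6% in shEZH2 cells. Among the 4 beta subunits, ITGB3 made up 6.86%, 8.61% and 7.19% across the Vector libraries and 4.49%, 5.57% and 5.83% across the shEZH2 libraries, again without overlap (exact two-sided permutation test, p = 0.1). ITGB1 and ITGB5 held 48.5% and 38.5% of the beta sum in Vector cells and 50.3% and 40.9% in shEZH2 cells, each with overlap between the groups. The shares of ITGA2 (1.31% and 1.94% in Vector and shEZH2 cells) and ITGB8 (5.44% and 3.50%) did not overlap either, with the same p. Without Vector replicate 2 the Vector mean of the ITGB8 share was 4.11%, and that of the ITGA2 share 1.26%.

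Ratios within a library set the partners of ITGAV against each other. The ratio of ITGB3 to ITGB5 was 0.185, 0.208 and 0.195 across the Vector libraries and 0.0970, 0.156 and 0.143 across the shEZH2 libraries, a difference of -0.60 in log2 ratio, and -0.55 without Vector replicate 2. The ratio of ITGB3 to ITGB1 differed by -0.57, and by -0.37 without Vector replicate 2. For both ratios the groups did not overlap (exact two-sided permutation test, p = 0.1, and 0.25 adjusted over the 5 ratios tested). ITGB8 to ITGB5 differed by -0.65 in log2 ratio, and by -0.38 without Vector replicate 2, with overlap of the groups (p = 0.3 in the same exact test). The ratios of ITGAV to the sum of its 3 other partners (-0.21, p = 0.4) and of ITGA3 to ITGA6 (0.03, p = 1) also overlapped in that exact permutation test.

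Of the other 16 integrin subunits, 14 were in the table and 7 reached a mean of 10 normalized counts. Of these 7, 1 was called higher and 1 lower, beside 7.55% and 7.07% of all genes. ITGB2, the beta subunit of leukocyte integrins, had 4.77 to 12.5 normalized counts over the 6 libraries, and ITGB4 and ITGB6, of epithelial cells, were at a mean of at most 6.25 in either group. ITGA10, a collagen-binding subunit, was called lower, with 29.3, 30.3 and 25.5 normalized counts across the Vector libraries and 7.62, 17.6 and 11.5 across the shEZH2 libraries. Its log2 fold change was -1.22 (SE 0.36, limma adjusted p = 0.102). ITGAD, a leukocyte alpha subunit, was called higher (1.25 on the log2 scale, adjusted p = 0.175 in limma) from a mean of 7.48 to 17.9 normalized counts, and lost the call without Vector replicate 3 or shEZH2 replicate 1 or 3. The 5 not called were ITGA7, ITGA9, ITGA11, ITGAE and ITGAX, with log2 fold changes from -1.03 for ITGA11 to 0.46 for ITGAE, which was 0.0059 without Vector replicate 2. After adjustment over all genes, 0 of the 7 passed in limma, edgeR or DESeq2, against 2 at an unadjusted p under 0.05 in limma.

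Of 38 genes of integrin ligands, 37 were in the table and 25 were tested, of which 4 were called higher and 4 lower, beside 7.55% and 7.07% of all genes. Their median log2 fold change was -0.02 beside 0.04 over all genes tested, and 0.04 without Vector replicate 2 beside -0.0059 over all genes. FN1, the gene of fibronectin and so of the main ligand of the receptor that holds ITGA5, was called higher. It had 54026, 79312 and 54122 normalized counts across the Vector libraries and 93523, 116344 and 129364 across the shEZH2 libraries, without overlap. Its log2 fold change was 0.87 (SE 0.25, limma adjusted p = 0.0949), and 1.05 without Vector replicate 2. At 422 RPKM in shEZH2 cells it was more abundant than any of the 9 subunits.

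The matricellular proteins CYR61 and CTGF, also named CCN1 and CCN2, are ligands of ITGAV and ITGA6 receptors, and both rose. CYR61 went from 1016, 648 and 1150 normalized counts across the Vector libraries to 3444, 2967 and 3309 across the shEZH2 libraries, a log2 fold change of 1.83 (adjusted p = 0.00994 in limma). CTGF had a mean of 662 normalized counts in Vector and 5571 in shEZH2 cells, a log2 fold change of 3.11 (adjusted p = 0.00316 in limma). L1CAM, a neural adhesion molecule that integrins bind, was called higher by 0.62 on the log2 scale (adjusted p = 0.104 in limma). It was not called by DESeq2 or without Vector replicate 1 or 3 or shEZH2 replicate 3. Without Vector replicate 2 it gave 0.79 (adjusted p = 0.000105 in limma).

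Among the ligands called lower, TNC and LAMA4 passed after adjustment. TNC encodes tenascin-C, and had 11539, 21175 and 11686 normalized counts across the Vector libraries and 4892, 5216 and 6058 across the shEZH2 libraries. Its log2 fold change was -1.40 (SE 0.26, limma adjusted p = 0.0303), and -1.11 without Vector replicate 2. LAMA4, a laminin alpha chain, fell by 1.28 on the log2 scale (SE 0.22, limma adjusted p = 0.0249), from 1562 ± 451 to 629 ± 78.0 normalized counts (SD, n = 3 each), and by 1.06 without Vector replicate 2. The chains LAMB1 and LAMC1, which most laminins share, gave -0.20 and -0.41 (0.0077 and -0.16 without Vector replicate 2) and were not called. COL1A2 (-0.83) and FBN1 (-1.05) were also called lower, at means of at most 65.5 normalized counts. COL1A2 was not called with the length trend removed or without Vector replicate 1 or shEZH2 replicate 2, and FBN1 lost the call under 9 of the 15 settings, the removal of any 1 Vector library among them.

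VTN, the gene of vitronectin, and VCAM1, a ligand of ITGA4 receptors, were near 0, at means of 7.35 and 1.86 normalized counts in Vector and 2.17 and 0 in shEZH2 cells. TGFB1, whose latent form ITGB8 and other ITGAV receptors bind, had a log2 fold change of 0.30 (adjusted p = 0.210 in limma) and LTBP1, which holds it in the matrix, -0.02, or 0.22 without Vector replicate 2. SPP1, which encodes the ITGAV ligand osteopontin, was abundant, at 158 RPKM in Vector and 195 in shEZH2 cells, and was not called (0.37, adjusted p = 0.558 in limma, and -0.10 without Vector replicate 2).

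Adhesion adaptors link integrins to actin inside the cell. Of 24 tested, 3 were called higher and 0 lower in limma, where 7.55% and 7.07% of all genes were called. The median log2 fold change of the 24 was 0.06 beside 0.04 over all genes. Without Vector replicate 2 it was 0.25 beside -0.0059 over all genes. TGFB1I1, which encodes the paxillin relative Hic-5, rose from 553 ± 56.6 to 914 ± 71.3 normalized counts (SD, n = 3 each), by 0.73 on the log2 scale (SE 0.14, limma adjusted p = 0.0355). RSU1, a partner of the ILK complex, and FHL2, a LIM protein at adhesions, were called higher by 0.72 and 0.63, with adjusted p-values of 0.133 and 0.159 in limma. Neither was called without Vector replicate 2 or without shEZH2 replicate 1 or 3. Without Vector replicate 2 they gave 0.45 and 0.36, short of 1.5-fold, with adjusted p-values of 0.0197 and 0.0189 in limma. FHL2 was also not called by edgeR or DESeq2 or without shEZH2 replicate 2. TLN1 and FERMT2, the talin and kindlin genes whose proteins switch integrins on, gave -0.31 (0.01 without Vector replicate 2) and 0.28, and PXN, the gene of paxillin, 0.26, none of them called.

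Of the 22 adhesion signalling genes, 0 were called in limma, edgeR or DESeq2. In limma 7.55% of all genes were called higher and 7.07% lower. The median log2 fold change of the 22 was -0.02. At an unadjusted p under 0.05 in limma, 1 gene was higher and 3 were lower, against 11.9% and 11.3% of all genes. Each changed by less than 1.5-fold, namely PAK1, a kinase downstream of RAC1, and PTK2B, FYN and NEDD9. PTK2, which encodes focal adhesion kinase, gave 0.11 (95% interval -0.22 to 0.44) and SRC -0.04 (95% interval -0.36 to 0.28). In this fit of all libraries both intervals exclude a change of 1.5-fold. With the length trend removed PTK2 gave 0.35 (adjusted p = 0.124 in limma), so for PTK2 the exclusion holds for the main fit only. Of the 8 regulators of integrin activation tested, 0 were called higher and 1 lower, beside 7.55% and 7.07% of all genes. KRIT1 was the 1 called lower, by 0.77 on the log2 scale (adjusted p = 0.109 in limma), from 138 ± 19.8 to 81.8 ± 21.6 normalized counts (SD, n = 3 each). KRIT1 binds ITGB1BP1, an inhibitor of ITGB1 activation, which gave 0.56 (0.23 without Vector replicate 2) and was not called (adjusted p = 0.262 in limma). The median of the 8 was 0.23 beside 0.04 over all genes, and 0.06 without that library beside -0.0059 over all genes.

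Of the 11 membrane partners of integrins, 2 were called higher and 0 lower (7.55% and 7.07% of all genes). Their median log2 fold change was 0.47 beside 0.04 over all genes, and 0.30 without Vector replicate 2 beside -0.0059 over all genes. CD63, a tetraspanin, gave 0.25 with all libraries and -0.43 without that library, and CD9, another, 0.58 and 0.16. The called genes were PLAUR, the urokinase receptor, from 27.4 to 57.4 normalized counts (log2 fold change 1.13, adjusted p = 0.137 in limma), and CD151, a tetraspanin that binds laminin receptors, from 1661 to 2735 (log2 fold change 0.79, adjusted p = 0.195 in limma). PLAUR was not called without shEZH2 replicate 1 or 3, and without Vector replicate 2 it gave 0.72 (adjusted p = 0.0560 in limma). CD151 had 2037, 931 and 2015 normalized counts across the Vector libraries and 3350, 2269 and 2586 across the shEZH2 libraries, and without Vector replicate 2 its log2 fold change was 0.41. It was not called then, nor without any 1 of the shEZH2 replicates. CAV1, the caveolin gene, and CD47, which binds ITGAV receptors, gave 0.47 and 0.37 with a p of 0.0170 and 0.0206 in limma, short of 1.5-fold. In the 14 trafficking genes tested, 1 was called higher and 1 lower, beside 7.55% and 7.07% of all genes. RAB11A, of the slow recycling route, was called higher (0.77, adjusted p = 0.0993 in limma) and RAB21, which binds integrin alpha tails, lower (-0.73, adjusted p = 0.0822 in limma). Neither was called without Vector replicate 2, where they gave 0.51 and -0.54, short of 1.5-fold, with adjusted p-values of 0.0025 and 0.0080 in limma. RAB21 was also not called with the length trend removed.

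Among 11890 other genes whose mean reached 50 normalized counts, the log2 values of CD22, MARVELD1 and THSD1 ran closest to those of ITGA5 over the 6 libraries, with Pearson's r of 0.999, 0.997 and 0.997. With 6 libraries in 2 groups, such an r mostly follows the difference between the groups, and it is given as a description. CD22, a lectin best known from B cells, had 952, 1029 and 1033 normalized counts across the Vector libraries and 1946, 1828 and 1942 across the shEZH2 libraries. THSD1, a thrombospondin domain protein, rose by 1.34 on the log2 scale (adjusted p = 0.00937 in limma), while MARVELD1 gave 0.31 (adjusted p = 0.170 in limma).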

How the data were processed

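Poly(A) RNA was measured by RNA-seq in 3 Vector and 3 shEZH2 libraries of HMV-II cells. The deposited table holds 1 signal per gene and library. Its values are read counts that the authors made with featureCounts and divided by DESeq2 size factors (version 1.20.0 in the submitters' processing notes). The aligner is not given in the sources used here. The submitters list hg19, but the coordinates in the table fit GRCh38, since 47.9% of 20847 genes shared an end with that build against 0.838% of 29478 with GRCh37. Columns of the authors' group means, fold changes and p-values were not used.

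The values returned whole reads in every library to within 0.01, and their totals gave the depth, which limits precision as counting error only. Genes with a mean of at least 10 (15251 genes) were fitted on log2(normalized count + 1) with limma 3.58.1 (trended variance, R 4.3.3), and p-values were adjusted by Benjamini and Hochberg. A fold change on this scale understates that of low genes. A gene was called at p under 0.05 and more than 1.5-fold. Levels between genes were set as RPKM from the recovered reads and the table's gene length. The fit was checked on simulated data in which 200 of 15251 genes, all with a mean of at least 50, were changed by 2-fold. Of these, 94% were called and 25.5% passed after adjustment. Genes of lower mean were not among those changed, and the simulated counts held no length trend.

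Alternatives were edgeR 4.0.16 and DESeq2 1.42.0 on the recovered reads, other pseudocounts, minimum means, scaling and thresholds, removal of the length trend, a replicate block and leaving out each library. Named genes were the subunits, EZH2, other integrin subunits with a mean of at least 10, up to 4 called genes without overlap per list by smallest p, genes a ligand or partner sentence needs, and the 3 genes most alike ITGA5. The members and lists were chosen with earlier results of these data known. Promoter sequences come from RefSeq (GRCh38.p14). 1 planned ratio, with ITGA4, was not analysed.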

Additional observations from a re-analysis of the deposited data

How the results depend on the processing

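Of 150 alternative log2 fold changes of the subunits and EZH2, 149 kept their direction and were called or not called as before (p under 0.05 and more than 1.5-fold), and of 102 alternative counts of genes, 91 were within 1.5 times the reported count. Adjusted p-values in limma moved more, up to 0.128 for EZH2 without shEZH2 replicate 3 and down to 0.0226 for ITGA3 without Vector replicate 2. Over all genes tested, 4 and 2875 passed adjustment in those fits, against 629 with all libraries. The counts of integrin subunits, 1 higher and 0 lower, were the same under every alternative. ITGB1 had a log2 fold change of -0.0014 without shEZH2 replicate 2, with a range of -0.0014 to 0.21 over the libraries left out, so it has no stable direction. Leaving out 1 library gave 849 to 1525 genes called higher and 774 to 1318 lower over all genes, and -1.12 to -0.96 for the log2 fold change of EZH2. The 7 companion lists had 7, 25, 24, 22, 8, 11 and 14 genes tested. Over these lists 11 genes were called higher and 7 lower, beside 7.55% and 7.07% of all genes. Leaving out 1 library gave 5 to 12 higher and 5 to 9 lower. The higher count was 6 without shEZH2 replicate 1 and 5 without shEZH2 replicate 3. With the length trend removed, 4 companion genes were called lower. With the adjusted p in place of the unadjusted p, 345 genes were called higher and 279 lower, and 3 and 2 among the companion genes. With 2-fold in place of 1.5-fold, 463 were called higher and 335 lower, and 4 and 4 among the companion genes. The cause of these shifts was not tested, other than that both thresholds are stricter by construction.

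The labels share replicate numbers, and the deviations of same-numbered libraries correlated at 0.28, 0.22 and -0.11. Among the Vector libraries, shEZH2 replicate 3 correlated best with replicate 2. The Vector deviations mostly follow the distance of replicate 2 from replicates 1 and 3. These correlations therefore cannot decide whether the numbers pair the samples. With the replicate number as a block, 1322 genes were called higher and 1112 lower, 1 and 0 among the subunits and 12 and 7 among the companion genes. ITGA5 gave 1.02 (adjusted p = 0.0324 in limma) under this block. Each subunit had over 300 normalized counts in every library, and how far depth or the number of libraries limits each value was not compared.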
